A study of Mus musculus with 40 samples.

Results

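Genes for Wnt ligands, their receptors and secreted modulators, with Axin2, Lef1, Tnfrsf19 and Apc2, were followed across 6 genotypes of mouse embryo at E9.5. The set was drawn up with earlier results of these data known. Its members were matched by gene symbol. They were the Wnt, Fzd, Sfrp1 to Sfrp5, Rspo and Dkk families together with Frzb, Wif1, Lrp5, Lrp6, Axin2, Lef1, Tnfrsf19 and Apc2. This gave 49 genes of the 26411 in the count files, made up of 19 Wnt ligands, 10 Frizzled receptors, 2 Lrp co-receptors, 4 R-spondins, 5 genes of the Sfrp and Frzb group, 5 of the Dkk and Wif1 group, and 4 further genes. Whole embryos had been sequenced as bulk RNA, 4 per genotype (24 libraries), to set the loss of the histone acetyltransferases KAT6A and KAT6B against the loss of their catalytic activity only. WT embryos carried WT alleles at both genes. Kat6a-/- embryos were homozygous for the null allele that the labels call cfd, with WT Kat6b, and Kat6b-/- embryos for the null allele that the labels call dec, with WT Kat6a. Kat6aE/E embryos were homozygous for G656E and Kat6bE/E embryos for G577E, glycine-to-glutamate changes in the acetyltransferase domain of each protein, again with the other gene WT, and Kat6aE/E;Kat6bE/E embryos were homozygous for both. All alleles were constitutive and on a C57BL/6 background, so every tissue of the embryo was mutant.

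Wnt proteins are secreted, lipid-modified signals that bind a Frizzled receptor together with the co-receptor LRP5 or LRP6. In the canonical branch, this stabilises beta-catenin, which enters the nucleus and works with LEF1 and the TCF proteins at target genes, of which Axin2 is the standard one and also a feedback inhibitor. SFRP proteins, FRZB and WIF1 hold back Wnt proteins outside the cell, DKK1 and DKK2 block the co-receptors, and R-spondins raise signalling by keeping Frizzled receptors at the cell surface. At the stage studied, Wnt signals pattern the neural tube, somites, limb buds, heart and pharyngeal region.

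Promoters in the RefSeq table for GRCm38.p6 were matched by symbol to 33 of the 49 members. The 250 bases before the transcription start are shown for Sfrp2, Wnt9a and Tnfrsf19, because these were the members with the smallest p in Kat6a-/- against WT embryos and were called in the double mutant as well. Both strands were searched for the TCF/LEF words CTTTGAT or CTTTGTT or CTTTGAA or CTTTGTA, and capitals mark a match in either direction. The Sfrp2 window lies at chr3:83766071-83766320 on the plus strand, the Wnt9a window at chr11:59306680-59306929 on the plus strand, and the Tnfrsf19 window, at 1 of the gene's 2 listed starts, at chr14:61037988-61038237 on the minus strand.
Sfrp2: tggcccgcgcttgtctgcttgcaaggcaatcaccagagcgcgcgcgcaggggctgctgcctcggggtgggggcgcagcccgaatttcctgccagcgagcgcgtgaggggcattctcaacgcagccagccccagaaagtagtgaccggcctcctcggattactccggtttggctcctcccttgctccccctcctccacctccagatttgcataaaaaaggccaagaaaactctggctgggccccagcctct
Wnt9a: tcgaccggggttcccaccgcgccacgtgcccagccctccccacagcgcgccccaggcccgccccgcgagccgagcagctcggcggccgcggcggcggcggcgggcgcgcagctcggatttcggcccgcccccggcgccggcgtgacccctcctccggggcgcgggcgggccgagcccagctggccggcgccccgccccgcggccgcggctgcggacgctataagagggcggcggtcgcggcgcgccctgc
Tnfrsf19: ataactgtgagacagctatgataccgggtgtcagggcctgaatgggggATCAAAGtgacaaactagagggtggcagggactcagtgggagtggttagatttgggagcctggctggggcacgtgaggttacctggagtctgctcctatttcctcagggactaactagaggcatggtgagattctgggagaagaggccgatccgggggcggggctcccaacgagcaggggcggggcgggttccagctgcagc
Of the 2 listed Tnfrsf19 starts, only 1 had a match, and that start was the one shown. Its match was therefore fixed by the choice and is no result of the search. It is read as ATCAAAG and begins 202 bases before the start. Sfrp2 and Wnt9a have 1 listed start each, and neither window held any of these words. A match was present in 16.3% of the members' listed promoters (7 of 43) and in 14.8% of all 32851 promoters in the table, so the members' promoters held these short words about as often as promoters in general. The Wnt9a window was 84.4% G and C with 48 CpG sites, the Sfrp2 window 63.6% with 16 and the Tnfrsf19 window 59.2% with 8. Sfrp1, Rspo3 and Wnt5a are named only.

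Embryo libraries held 8401990 to 23339359 counted read pairs. Of the 24 embryos, which the study describes as male, 3 had Xist reads (527 to 755 CPM, read pairs per 1000000 in the library) and almost no Y-linked reads (0.0525 to 0.199 CPM in sum, against 146 to 218 in the other 21). They were Kat6a-/- replicate 2 and Kat6b-/- replicates 2 and 3, and the members' calls are given with and without them. Counts over the whole gene, which include exons outside the deletions, did not check the null alleles: Kat6a was at 160 to 171 CPM in Kat6a-/- and 169 to 186 in WT embryos, and Kat6b was at 52.0 to 58.3 CPM in Kat6b-/- and 38.2 to 42.6 in WT embryos (log2 fold change 0.41, FDR=0.00441). Neither gene was called in any of the other comparisons. The 24 embryos came from 17 litters, and only 3 pairs of embryos of different genotypes shared one. All 5 comparisons with WT use the same 4 WT libraries. In bulk RNA, fewer cells of a type and less RNA per cell cannot be told apart.

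In WT embryos, the inhibitor genes Sfrp2 and Sfrp1 and the receptor genes Fzd2, Fzd7 and Fzd10 were the most abundant members. Per kilobase of gene length, Sfrp2 was highest at 73.0 ± 1.59 CPM per kb (SD, n = 4), followed by Sfrp1 at 65.6 ± 2.89, Fzd2 at 63.7 ± 2.76, Fzd7 at 43.0 ± 2.33 and Fzd10 at 31.0 ± 3.68. The ranges of Sfrp1 and Fzd2 overlapped, whereas Sfrp2 lay above both in every embryo. Lrp5 (23.1 ± 0.541), Axin2 (21.3 ± 1.47) and Tnfrsf19 (20.3 ± 1.53) came next and overlapped in turn. Among the ligands, Wnt6 was highest at 15.1 ± 1.99 CPM per kb and Wnt8a lowest at 0.254 ± 0.172, and the median ligand was at 3.93. The lowest member of each other family was Fzd5 among the Frizzled receptors (2.25), Lrp6 of the co-receptors (14.54), Rspo2 of the R-spondins (2.86, with Rspo1 highest at 10.1), Apc2 (2.37) among Axin2, Lef1, Tnfrsf19 and Apc2, Sfrp4 in the Sfrp group (0.248) and Dkk4 in the Dkk group (0.0427, with Dkk3 highest at 4.31). Sfrp4 and Dkk4 fell below the filter on low counts, which left 47 members for testing.

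**Figure D1:**
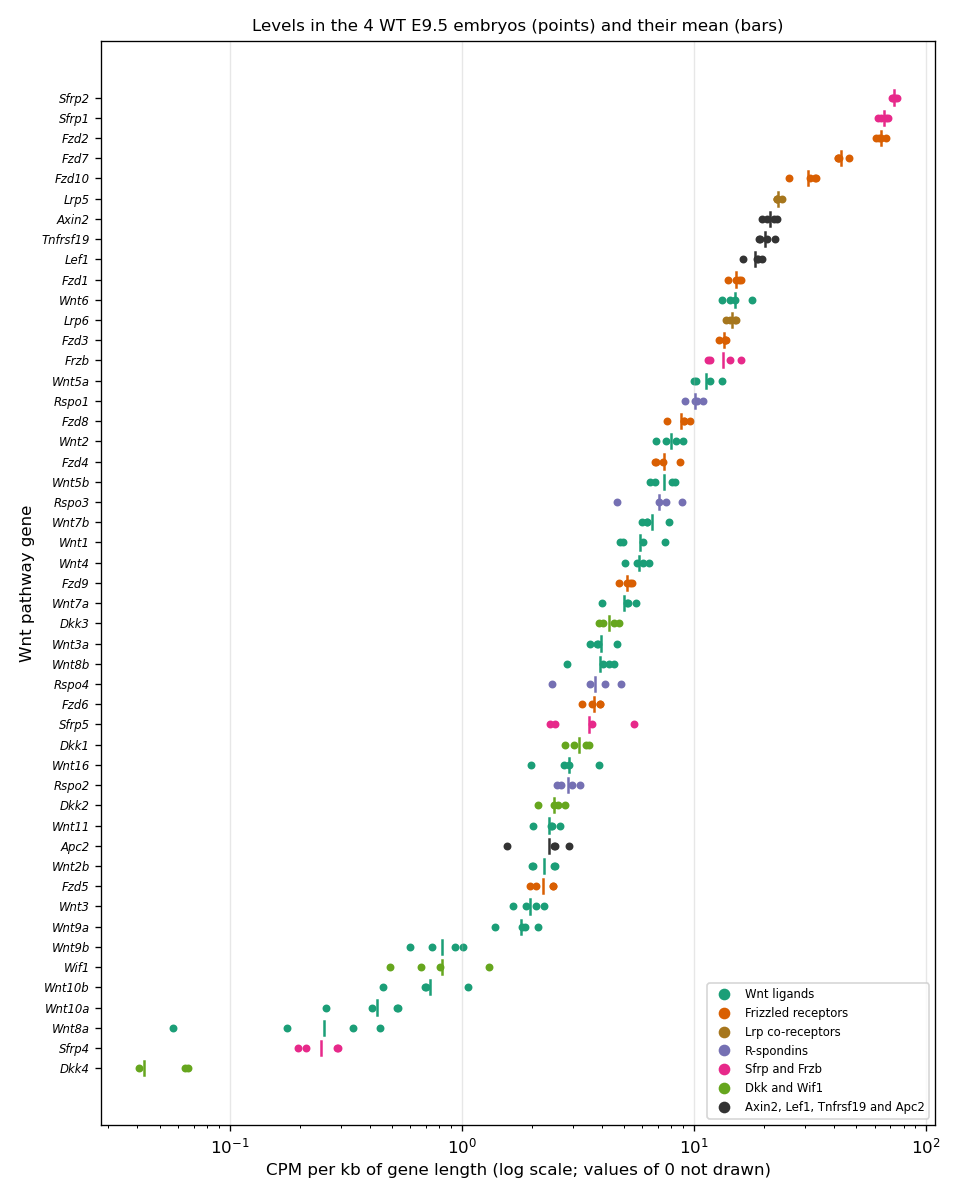
Level of each of the 49 members in the 4 WT E9.5 embryos, in CPM per kb of gene length on a log scale, with points for embryos, bars for means and colour for family. Sfrp2 and Sfrp1 stand at the top and Sfrp4 and Dkk4 at the bottom, with most Wnt ligands in the lower part of the order.

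More members were called in Kat6a-/- than in any other mutant against WT embryos. At FDR<0.05 in limma, 7 of 47 members passed (14.9%), against 2.64% of the 14183 genes tested. Of these, 3 rose (1.26% of all genes rose) and 4 fell (1.38% of all genes fell). The ranges of the 4 mutant and 4 WT embryos did not overlap for 13 members (27.7%), against 11.9% of all genes. The median log2 fold change of the members was 0.0491, beside -0.00247 for all genes, and the median size regardless of sign was 0.196 beside 0.0851. The 7 called were Sfrp2, Sfrp1, Apc2 and Fzd9, which fell, and Wnt9a, Rspo3 and Tnfrsf19, which rose. Since the members were chosen with earlier results of these data known, their higher share is no independent test of the pathway.

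Fewer members were called in the other genotypes. In Kat6aE/E;Kat6bE/E against WT embryos, 4 of 47 members were called (8.51%, against 2.91% of all genes): Wnt9a, Rspo3 and Tnfrsf19 rose (1.34% of all genes rose) and Sfrp2 fell (1.57% of all genes fell). Ranges did not overlap for 3 of all 47 members (6.38%: Sfrp2, Tnfrsf19 and Wnt9a), beside 7.31% of all genes. In Kat6b-/- against WT embryos, 2 members were called (4.26%, against 0.508% of all genes), and both, Wnt5a and Rspo3, rose (0.169% of all genes rose and 0.338% fell). Ranges were separate for 6 members there, beside 6.61% of all genes. In Kat6aE/E against WT embryos 0 members were called in limma (0.275% of all genes), with 9 under 0.05 before adjustment (19.1%, beside 10% of all genes), and ranges were separate for 2 (4.94% of all genes). In Kat6bE/E against WT embryos 0 members were called in limma as well (0% of all genes), with 1 under 0.05 before adjustment (2.13%, beside 4.41% of all genes), and no member's ranges were separate (2.31% of all genes). edgeR and DESeq2 also called 0 members in both.

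**Figure D2:**
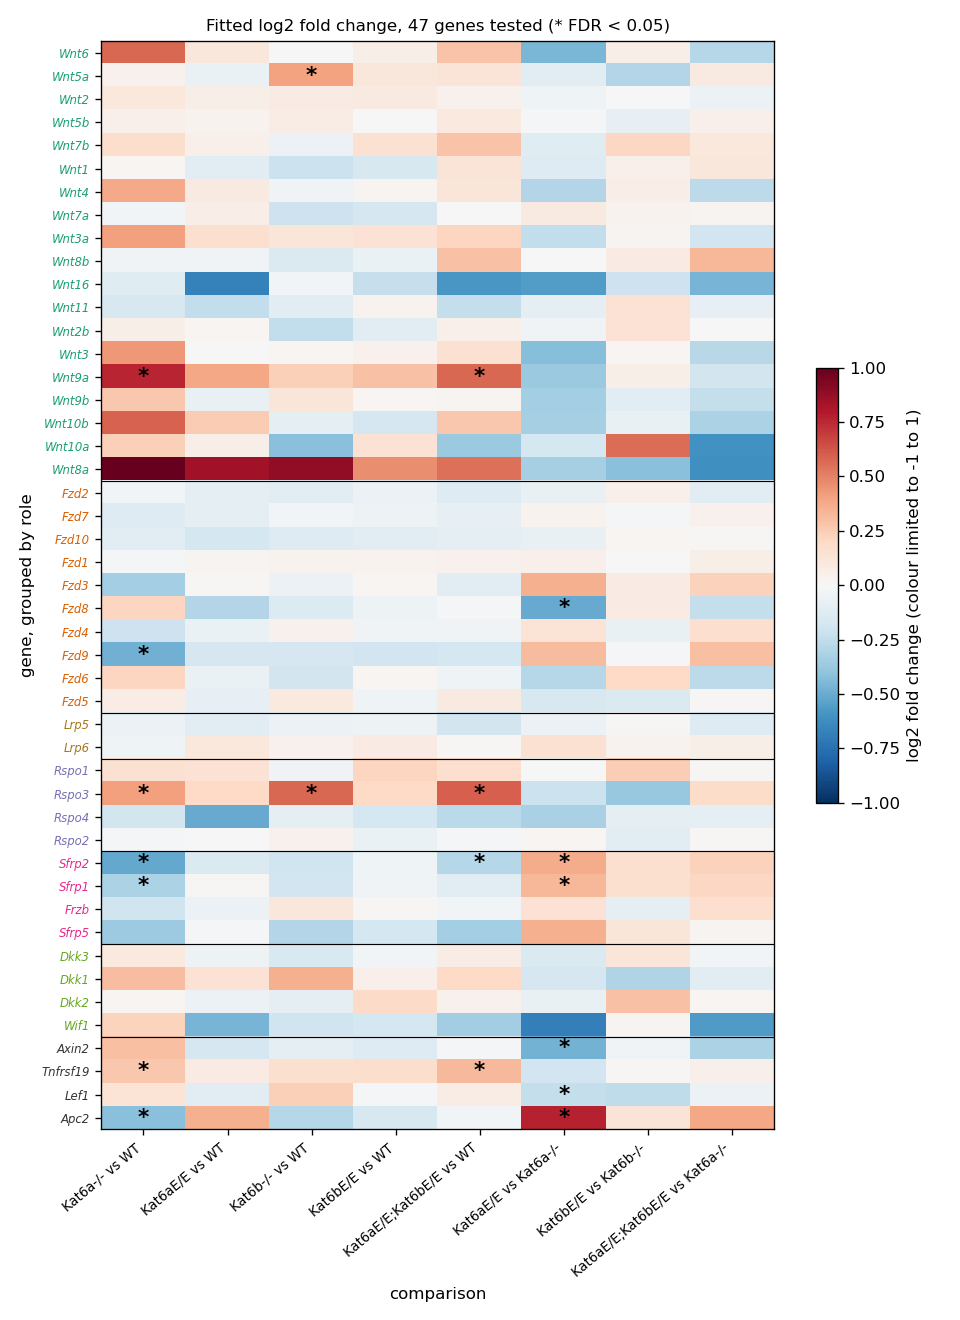
Fitted log2 fold change of the 47 members tested (rows, grouped by role) in the 8 comparisons (columns), with red for higher and blue for lower in the first genotype named and an asterisk for FDR<0.05. Asterisks stand on 7 members in Kat6a-/- against WT, 2 in Kat6b-/-, 4 in Kat6aE/E;Kat6bE/E and 6 in Kat6aE/E against Kat6a-/-.

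The secreted inhibitors Sfrp1 and Sfrp2 were lower in Kat6a-/- embryos, and the point mutation on its own left them closer to WT. Sfrp2 was at 147, 144, 150.0 and 143 CPM in the 4 WT embryos and at 94.0, 109, 91.8 and 98.6 CPM in the 4 Kat6a-/- embryos. All mutant embryos were thus below all WT embryos, and Sfrp2 fell by 30.0% (log2 fold change -0.51, SE 0.054, FDR=8.68e-06). Kat6aE/E embryos had 133, 132, 125 and 137 CPM, which lay below every WT embryo and above every Kat6a-/- embryo. Against WT this difference was not called (log2 fold change -0.14, 95% confidence interval -0.25 to -0.04, FDR=0.32), and against Kat6a-/- Sfrp2 rose by 0.37 on the log2 scale (SE 0.056, FDR=0.00141). In Kat6aE/E;Kat6bE/E embryos Sfrp2 was at 112, 129, 126 and 107 CPM and fell by 18.1% (log2 fold change -0.29, SE 0.054, FDR=0.00557). Kat6b-/- embryos had 113, 134, 127 and 118 CPM (log2 fold change -0.20, SE 0.053, FDR=0.0805) and Kat6bE/E embryos 131, 145, 145 and 144 CPM (-0.04, SE 0.052, FDR=0.998). The Kat6b-/- values were thus below all WT embryos without passing the test, while those of Kat6bE/E overlapped with WT. In Kat6b-/-, Sfrp2 was called with all gene types kept (FDR=0.0269), with a replicate block (FDR=0.024) and without double mutant replicate 3 or 4 (FDR=0.0377 and FDR=0.0494). Without the 3 libraries with Xist reads, Sfrp2 was again called in Kat6a-/- (-0.59, FDR=9.24e-06), in Kat6aE/E;Kat6bE/E (-0.31, FDR=0.00373) and in Kat6aE/E against Kat6a-/- embryos (0.45, FDR=0.000383). The double mutant call was lost with 0 surrogate variables (FDR=0.127), in edgeR without them (FDR=0.0632) and in a fit of only the 8 libraries compared (FDR=0.237), and that last setting also ended the call between the Kat6a mutants (FDR=0.0626).

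Sfrp1 was at 294, 272, 280.3 and 299.9 CPM in WT and at 192, 250.03, 218 and 226 CPM in Kat6a-/- embryos. The groups did not overlap, and Sfrp1 fell by 19.7% (log2 fold change -0.32, SE 0.066, FDR=0.0153). The call was lost when any 1 of the 4 WT libraries was left out (FDR 0.0521 to 0.0608), and without the 3 libraries with Xist reads the fall was larger (-0.42, FDR=0.000674). Kat6aE/E embryos, at 270.3, 296, 310.4 and 296 CPM, overlapped with WT (log2 fold change 0.01, 95% confidence interval -0.12 to 0.15) and lay above all Kat6a-/- embryos, a difference of 0.33 on the log2 scale (SE 0.068, FDR=0.0188), or 0.45 (FDR=0.000614) without the libraries with Xist reads, that was not called with only the 8 libraries compared (FDR=0.144). Values in Kat6b-/- embryos (201, 270.0, 255 and 239 CPM) were below those of WT embryos but not called (log2 fold change -0.19, FDR=0.214), although they were once the libraries with Xist reads had been left out (-0.38, FDR=0.0224). Kat6aE/E;Kat6bE/E embryos had 246, 242, 259.8 and 277 CPM and Kat6bE/E embryos 252, 283, 295 and 285 CPM, and neither differed from WT in the test (FDR=0.401 and FDR=0.998). Frzb and Sfrp5, the other inhibitors of this group that were tested, had negative estimates in Kat6a-/- embryos (-0.20, FDR=0.209, and -0.37, FDR=0.185) that were not called.

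Sfrp1 is the only member tested that lies near Kat6a. On GRCm39, Sfrp1 spans chr8:23901263-23939648 on the plus strand, 468.0 kb beyond the end of Kat6a. Dkk4, 232.0 kb from Kat6a, was too low to be tested. Within 1 Mb of Kat6a, 21 genes were tested and Sfrp1 was the only one called in Kat6a-/- embryos. Within 10 Mb, 2 of 77 were called (2.6%), Sfrp1 and Plekha2, beside 2.64% of all genes. Sfrp2 lies on another chromosome, at chr3:83673481-83681623.

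Some neural progenitor markers were lower in Kat6a-/- embryos, as both inhibitors were. The summed level of Sox1, Sox2, Pax6, Nes, Fabp7 and Hes5 was 737 to 777 CPM in WT and 478 to 630 CPM in Kat6a-/- embryos, with 3 of the 6 lower (Nes -0.53, Sox2 -0.33 and Pax6 -0.28 on the log2 scale), beside 1.38% of all genes. Nes was higher in Kat6aE/E than in Kat6a-/- embryos (0.57, FDR=0.00247). In Kat6b-/- and double mutant against WT embryos 0 of the 6 were called in limma, with 2 under 0.05 before adjustment in each (12.1% and 18.2% of all genes) and medians of -0.211 and -0.064. The sum was 656.4 to 824 CPM in Kat6aE/E, 603 to 680 in Kat6aE/E;Kat6bE/E, 499 to 682 in Kat6b-/- and 654 to 819 in Kat6bE/E embryos. Endothelial markers summed to 262 to 288 CPM in WT and 173 to 252 CPM in Kat6a-/- embryos, with 0 of 4 called in limma and 4 of 4 under 0.05 before adjustment (16.9% of all genes). Among other marker lists, Ednrb of 5 neural crest genes (-0.50, FDR=0.0153) and Tbx5 of 4 limb bud genes (-0.44, FDR=0.0263) were lower in Kat6a-/- embryos (1.38% of all genes). Ednrb (0.57, FDR=0.00952) was higher (0.973% of all genes) and Amn of 6 yolk sac genes (-1.99, FDR=0.0101) lower (0.628% of all genes) in Kat6aE/E than in Kat6a-/-. Tnnt2 of 6 heart genes was higher in the double mutant (0.36, FDR=0.0415), beside 1.34% of all genes. Lists for somites and primitive red cells had no call. Estimates of the somite list nonetheless ran from -0.0554 to 1.8 in Kat6b-/- and from -0.425 to 2.06 in the double mutant against WT. Across all embryos, Tbx6 of that list was at 0.59 to 11.8 CPM and Msgn1 at 0 to 6.97 CPM, while Pax3 was at 34.8 to 54.5 CPM. The part that these cell types have in the results was not tested.

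Of the Wnt ligands, Wnt9a rose in Kat6a-/- embryos and Wnt5a in Kat6b-/- embryos. WNT9A is best known from joint, limb and cranial skeletal development. Wnt9a was at 6.23, 4.63, 6.01 and 7.07 CPM in WT and at 11.3, 11.7, 8.84 and 8.66 CPM in Kat6a-/- embryos. These ranges were separate, and Wnt9a rose by 69.3% (log2 fold change 0.76, SE 0.15, FDR=0.00615). The call rested on 54 to 185 read pairs in each of these 8 libraries and was lost without the 3 libraries with Xist reads (0.62, FDR=0.0569). In Kat6aE/E;Kat6bE/E embryos Wnt9a was at 8.07, 10.04, 8.33 and 8.53 CPM, again above all WT embryos, and rose by 48.8% (0.57, SE 0.15, FDR=0.0351). This second call was lost when 1 library was left out in 11 of 24 cases (FDR 0.0538 to 0.154): WT replicates 1, 2 and 3, Kat6a-/- replicate 2, Kat6b-/- replicate 2, Kat6bE/E replicates 1, 3 and 4, and double mutant replicates 2, 3 and 4. It was also lost without the 3 libraries with Xist reads (0.52, FDR=0.0702), with 0 or 2 surrogate variables (FDR=0.174 and FDR=0.0515), in edgeR without them (FDR=0.108), with no filter on low counts (FDR=0.052), with a replicate block (FDR=0.058) and with only the 8 libraries compared (FDR=0.307). Kat6aE/E embryos had 7.78, 9.83, 8.53 and 6.10 CPM, Kat6bE/E embryos 7.99, 6.76, 7.92 and 6.75 CPM and Kat6b-/- embryos 6.32, 7.34, 6.95 and 6.67 CPM, all overlapping with WT and none called. Wnt9a (chr11:59197567-59224378, plus strand) has Wnt3a 16.0 kb away on the opposite strand, and Wnt3a was at 15.6 CPM in Kat6a-/- and 10.98 CPM in WT embryos on average, an uncalled difference (0.41, FDR=0.109).

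WNT5A is the main ligand of the beta-catenin-independent branch and drives outgrowth of the tail, limbs and face. Wnt5a was at 64.3, 74.3, 82.9 and 62.8 CPM in WT and at 99.7, 99.8, 91.8 and 121 CPM in Kat6b-/- embryos. All Kat6b-/- embryos were above all WT embryos, and Wnt5a rose by 32.3% (log2 fold change 0.40, SE 0.067, FDR=0.00474), or 0.51 (FDR=0.00169) without the 3 libraries with Xist reads. Leaving out WT replicate 4 (0.37, FDR=0.105) or Kat6b-/- replicate 4 (0.38, FDR=0.0615) ended the call. So did a fit with 0 or 2 surrogate variables (0.52, FDR=0.106, and 0.50, FDR=0.0507), edgeR without them (0.54, FDR=0.164) and a fit of only the 8 libraries compared (0.54, FDR=0.132). Values in Kat6bE/E embryos, 82.4, 75.4, 69.7 and 92.6 CPM, overlapped with both, and neither the difference from WT (0.11, 95% confidence interval -0.03 to 0.25) nor that from Kat6b-/- (-0.29, FDR=0.149) was called. Kat6a-/- (94.7, 67.5, 79.7 and 75.6 CPM), Kat6aE/E (77.2, 58.1, 64.7 and 60.4 CPM) and double mutant embryos (90.1, 76.3, 83.9 and 78.8 CPM) overlapped with WT as well. Wnt5a (chr14:28226495-28249405, plus strand) lies 6503.9 kb from Kat6b on the same chromosome and was the only one of 114 genes tested within 10 Mb that was called in Kat6b-/- embryos (0.877%).

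The remaining 17 ligands tested were called in none of the 8 comparisons of the main fit. In Kat6a-/- embryos 15 of all 19 ligand estimates were above 0, with a median of 0.176, and 6 had an unadjusted p under 0.05 in limma, beside 16.9% of all genes. Wnt6 was at 36.9, 27.3, 31.0 and 29.6 CPM in WT and at 66.3, 59.8, 44.6 and 45.9 CPM in Kat6a-/- embryos, ranges that did not overlap, but the difference was not called (0.57, SE 0.19, FDR=0.122). It was called with 6 surrogate variables (FDR=0.0205), in DESeq2 without them (FDR=0.0147) and with only the 8 libraries compared (FDR=0.0418). Some single libraries left out also gave a call (FDR 0.0111 to 0.0457). Wnt4, at 24.4, 23.2, 19.2 and 21.8 CPM in WT and 32.0, 37.5, 26.4 and 27.0 CPM in Kat6a-/- embryos, was likewise separate and uncalled (0.38, SE 0.13, FDR=0.108). Its calls came with 6 surrogate variables (FDR=0.0318), in DESeq2 without them (FDR=0.0253), with only the 8 libraries compared (FDR=0.0478) and without Kat6aE/E replicate 1 or 3 (FDR=0.0476 and FDR=0.0447). The estimate farthest from 0, that of Wnt8a (1.17, FDR=0.219), belonged to the ligand with the lowest level. The double mutant also had 15 of 19 ligand estimates against WT above 0 (median 0.129). The number was 13 in Kat6aE/E (median 0.0544), 12 in Kat6bE/E (0.0349) and 9 in Kat6b-/- embryos (-0.0267).

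R-spondin 3, encoded by Rspo3, amplifies Wnt signals and is needed for placental and vascular development. Rspo3 was called in 3 of the mutant genotypes, always higher. It was at 17.0, 21.4, 18.2 and 11.1 CPM in WT embryos, at 22.7, 26.5, 23.1 and 28.1 CPM in Kat6b-/-, at 27.0, 21.1, 25.7 and 24.9 CPM in Kat6aE/E;Kat6bE/E and at 28.6, 23.97, 23.9 and 20.8 CPM in Kat6a-/- embryos. Only the Kat6b-/- embryos were separate from WT, since WT replicate 2 reached into the ranges of the other 2 genotypes. Rspo3 rose by 48.7% in Kat6b-/- (log2 fold change 0.57, SE 0.11, FDR=0.0153). In Kat6aE/E;Kat6bE/E it rose by 51.0% (0.59, SE 0.10, FDR=0.00498). In Kat6a-/- it rose by 32.9% (0.41, SE 0.11, FDR=0.0408).

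The 3 calls of Rspo3 shared the WT libraries, of which replicate 4 was the lowest. Without WT replicate 4, the estimate was 0.43 in Kat6b-/- (FDR=0.105) and 0.27 in Kat6a-/- embryos (FDR=0.215), while the double mutant call was kept with any 1 library left out. All 3 calls were lost with 0 surrogate variables (FDR=0.135 in Kat6b-/-, FDR=0.13 in the double mutant and FDR=0.0786 in Kat6a-/-), in edgeR without them (FDR=0.25, FDR=0.102 and FDR=0.074) and with only the 8 libraries compared (FDR=0.205, FDR=0.307 and FDR=0.14). DESeq2 without surrogate variables ended the Kat6b-/- call (FDR=0.0553) and 2 surrogate variables the Kat6a-/- call (FDR=0.0804). The Kat6a-/- call was also lost without WT replicate 1 or 3, Kat6a-/- replicate 1, 2 or 3, Kat6b-/- replicate 2 or Kat6bE/E replicate 4 (FDR 0.0545 to 0.102). Without the 3 libraries with Xist reads, the calls in Kat6b-/- (0.59, FDR=0.0754) and Kat6a-/- (0.42, FDR=0.0614) were lost and that in the double mutant was kept (0.58, FDR=0.00587). Kat6aE/E embryos were at 18.4, 22.1, 20.03 and 15.2 CPM and Kat6bE/E embryos at 21.4, 20.04, 17.5 and 21.2 CPM, with 95% confidence intervals against WT of -0.02 to 0.41 and -0.03 to 0.42. Kat6bE/E embryos were all below all Kat6b-/- embryos, an uncalled difference of -0.38 (SE 0.11, FDR=0.266). Rspo1, Rspo2 and Rspo4 were called in no comparison, and Rspo1 was among the 3 members with the smallest p in Kat6bE/E embryos (0.21, FDR=0.998).

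Among the Frizzled receptors, Fzd9 fell in Kat6a-/- embryos and Fzd8 was lower in Kat6aE/E than in Kat6a-/- embryos. Fzd9 was at 11.4, 10.03, 11.2 and 10.8 CPM in WT and at 7.41, 7.04, 9.15 and 7.35 CPM in Kat6a-/- embryos. The groups were separate, and Fzd9 fell by 28.4% (log2 fold change -0.48, SE 0.12, FDR=0.0347). The call was lost when 1 library was left out in 10 of 24 cases (FDR 0.057 to 0.124), namely any WT library, Kat6a-/- replicate 1, 2 or 4, Kat6b-/- replicate 4, Kat6bE/E replicate 4 or double mutant replicate 2, and without the 3 libraries with Xist reads (-0.42, FDR=0.0526). It was also lost with 0 or 2 surrogate variables (FDR=0.063 and FDR=0.0562), in edgeR without them (FDR=0.0568) and with a replicate block (FDR=0.0679). In the other mutants Fzd9 had mean levels of 9.24 to 9.61 CPM and was not called.

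Fzd8 was at 31.3, 39.4, 28.5 and 29.6 CPM in Kat6a-/- embryos and at 25.8, 21.7, 19.96 and 26.6 CPM in Kat6aE/E embryos. The WT embryos, at 30.2, 25.6, 30.2 and 32.1 CPM, overlapped with both. Fzd8 was lower in Kat6aE/E than in Kat6a-/- embryos (log2 fold change -0.51, SE 0.084, FDR=0.0026), with estimates on opposite sides of WT that were not called (0.21 in Kat6a-/-, FDR=0.153, and -0.29 in Kat6aE/E, FDR=0.134). The highest Kat6a-/- value belonged to replicate 2, which had Xist reads, and without it the difference was -0.35 (FDR=0.0703), or -0.36 (FDR=0.0509) without all 3 such libraries. The call was also lost with 0 surrogate variables (FDR=0.107) and with only the 8 libraries compared (FDR=0.241). Fzd3, which acts in planar polarity and axon growth, was at 174, 163, 173 and 174 CPM in WT and at 130.5, 146, 119.9 and 129.8 CPM in Kat6a-/- embryos, separate but uncalled (-0.34, SE 0.11, FDR=0.123). With only the 8 libraries compared, this difference was called (-0.37, FDR=0.00249). The most abundant receptor gene, Fzd2, had small negative estimates in the double mutant (-0.13, SE 0.038, FDR=0.0624) and in Kat6b-/- embryos (-0.11, SE 0.038, FDR=0.214). In the double mutant, Fzd2 was called with 6 surrogate variables (FDR=0.0258) and without Kat6a-/- replicate 2 or Kat6aE/E replicate 1 (FDR=0.0387 and FDR=0.0365). The other 6 Frizzled genes, Lrp5 and Lrp6 were called in no comparison of the main fit. Fzd7 was called in Kat6a-/- against WT with only the 8 libraries compared (-0.20, FDR=0.0229). Lrp5 came closest in the double mutant (-0.18, SE 0.055, FDR=0.0645), and was called there with 6 surrogate variables (FDR=0.0383).

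Dkk1, Dkk2, Dkk3 and Wif1 were called in no comparison. Dkk1, itself a target of canonical Wnt signalling, was at 7.96, 7.72, 6.85 and 6.27 CPM in WT, 11.6, 8.90, 10.5 and 8.80 CPM in Kat6a-/- and 11.3, 9.29, 8.44 and 12.9 CPM in Kat6b-/- embryos. Both null genotypes lay above all WT embryos without passing the test (0.31, FDR=0.185, and 0.35, FDR=0.218).

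Tnfrsf19, a Wnt-responsive receptor of the TNF receptor family also known as TROY, rose in 2 genotypes. It was at 98.9, 91.1, 107 and 91.5 CPM in WT, at 118, 122, 117 and 113 CPM in Kat6a-/- and at 122, 118, 125 and 117 CPM in Kat6aE/E;Kat6bE/E embryos. Both mutant groups were above every WT embryo. Tnfrsf19 rose by 20.5% in Kat6a-/- (log2 fold change 0.27, SE 0.052, FDR=0.0059). It rose by 24.96% in Kat6aE/E;Kat6bE/E embryos (0.32, SE 0.052, FDR=0.0038). Neither call was lost with any 1 library left out, nor without the 3 libraries with Xist reads (0.25, FDR=0.0226, and 0.31, FDR=0.00363). The double mutant call was lost with 0 surrogate variables (0.33, FDR=0.121), in edgeR without them (0.32, FDR=0.0632) and with only the 8 libraries compared (0.33, FDR=0.1995). Kat6bE/E embryos had 108, 105, 107 and 123 CPM, the smallest p of any member in that comparison but an FDR of 0.998 (0.17, SE 0.051). Kat6b-/- embryos (98.2, 121, 100.3 and 119 CPM) and Kat6aE/E embryos (98.1, 106, 103 and 97.4 CPM) overlapped with WT and were not called. On GRCm39, Tnfrsf19 lies at chr14:61201283-61284366 on the minus strand, 39478.7 kb from Kat6b.

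Axin2, the feedback target, was at 119, 107, 116 and 102 CPM in WT and at 150.4, 146, 126 and 121 CPM in Kat6a-/- embryos, and at 104, 87.8, 85.8 and 103 CPM in Kat6aE/E embryos. Kat6a-/- embryos were above all WT embryos, just short of the call (0.30, SE 0.085, FDR=0.0634), and Kat6aE/E embryos overlapped with WT (-0.17, FDR=0.523). In Kat6a-/-, Axin2 was called with 6 surrogate variables (FDR=0.00653), in DESeq2 without them (FDR=0.0359), with no filter on low counts (FDR=0.0434) and with a replicate block (FDR=0.04). It was also called there with some single libraries left out (FDR 0.0134 to 0.0478). Between the mutants Axin2 was lower in Kat6aE/E (-0.48, SE 0.089, FDR=0.0109), a call lost without Kat6a-/- replicate 2 (-0.40, FDR=0.0596) and without all 3 libraries with Xist reads (-0.42, FDR=0.0534), and with only the 8 libraries compared (-0.48, FDR=0.144). Kat6b-/- (107 ± 9.87, SD, n = 4), Kat6bE/E (102 ± 9.25) and Kat6aE/E;Kat6bE/E embryos (112 ± 5.50) did not differ from WT (111 ± 7.63) in the test.

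Lef1, the nuclear partner of beta-catenin, was at 74.0, 77.3, 74.6 and 64.4 CPM in WT, 93.6, 79.5, 81.6 and 81.9 CPM in Kat6a-/- and 73.1, 56.8, 61.8 and 68.9 CPM in Kat6aE/E embryos. Kat6a-/- embryos lay above those of both other genotypes, and Lef1 was lower in Kat6aE/E than in Kat6a-/- embryos (-0.24, SE 0.059, FDR=0.0369). The log2 ratio of the mean CPM was -0.37, while the fitted value is adjusted for the surrogate variables. This call was lost when 1 library was left out in 12 of 24 cases (FDR 0.0509 to 0.174): any WT library, Kat6aE/E replicate 2 or 3, Kat6b-/- replicate 1, 2 or 4, or Kat6bE/E replicate 1, 2 or 4. It was also lost with 0 or 2 surrogate variables (-0.34, FDR=0.134, and -0.30, FDR=0.0829), in edgeR without them (-0.37, FDR=0.0567) and with only the 8 libraries compared (-0.34, FDR=0.194), and was kept without the libraries with Xist reads (-0.30, FDR=0.0124). Kat6b-/- embryos had the highest Lef1, at 86.5, 97.8, 82.5 and 99.0 CPM, all above WT (0.24, SE 0.057, FDR=0.0518) and just outside the call. This difference was called with 6 surrogate variables (FDR=0.0223), no filter on low counts (FDR=0.0359), all gene types (FDR=0.0246) or a replicate block (FDR=0.015). Some single libraries left out also gave a call, as Kat6b-/- replicate 1 did (FDR=0.0376). Kat6bE/E (77.3, 70.3, 62.7 and 86.7 CPM) and double mutant embryos (87.0, 71.4, 76.0 and 82.6 CPM) overlapped with WT.

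Apc2, a neuronal relative of the tumour suppressor Apc that binds beta-catenin and the cytoskeleton, was lower in Kat6a-/- than in Kat6aE/E embryos, with WT between them. It was at 24.4, 27.8, 23.9 and 15.1 CPM in WT, 13.8, 21.98, 16.9 and 12.6 CPM in Kat6a-/- and 37.6, 36.5, 23.1 and 25.4 CPM in Kat6aE/E embryos. WT overlapped with both mutants, and all Kat6aE/E embryos were above all Kat6a-/- embryos. Apc2 fell by 25.02% in Kat6a-/- against WT (log2 fold change -0.42, SE 0.10, FDR=0.0259), while its higher value in Kat6aE/E was not called (0.36, SE 0.090, FDR=0.0885). The Kat6aE/E difference was called with 6 surrogate variables (FDR=0.0153) or no filter on low counts (FDR=0.0477), and without Kat6aE/E replicate 3 (FDR=0.0489) or double mutant replicate 2 (FDR=0.0378). Between the mutants Apc2 rose by 70.6% (0.77, SE 0.099, FDR=0.000238), or 0.92 (FDR=0.000118) without the libraries with Xist reads. This call held with any 1 library left out but not with 0 surrogate variables (0.92, FDR=0.0984), in edgeR without them (0.92, FDR=0.0591) or with only the 8 libraries compared (0.94, FDR=0.262). The call in Kat6a-/- was lost without WT replicate 1, 2 or 3, Kat6a-/- replicate 1 or 4, or Kat6bE/E replicate 4 (FDR 0.0526 to 0.123). It was also lost with 0 or 2 surrogate variables (FDR=0.581 and FDR=0.175), in edgeR or DESeq2 without them (FDR=0.38 and FDR=0.285), with a replicate block (FDR=0.0563) and with only the 8 libraries compared (FDR=0.436), and was kept without the libraries with Xist reads (-0.55, FDR=0.00592). In Kat6b-/- embryos, at 10.2, 14.8, 22.5 and 12.4 CPM, the log2 ratio of the mean CPM was -0.61 but the fitted value -0.29 (FDR=0.211), and without the 3 libraries with Xist reads Apc2 was called there (-0.66, FDR=0.0406). Kat6bE/E and double mutant embryos had means of 20.2 ± 3.67 and 19.3 ± 1.76 CPM and were not called. The early neuron markers Tubb3, Elavl3, Elavl4, Dcx, Neurod1 and Stmn2 summed to 143 to 286 CPM in WT, 126 to 255 in Kat6a-/-, 114 to 215 in Kat6b-/- and 193 to 358 in Kat6aE/E embryos, ranges that overlapped with WT. Of these 6, Elavl4 was lower in Kat6a-/- (-0.48, FDR=0.0283, beside 1.38% of all genes) and Tubb3 was lower in Kat6b-/- (-0.41, FDR=0.0316, beside 0.338%). Dcx (0.84, FDR=0.00718) and Elavl4 (0.64, FDR=0.00696) were higher in Kat6aE/E than in Kat6a-/- embryos, beside 0.973% of all genes. Their part in the Apc2 result was not tested. Libraries were unstranded, and exons of Apc2 overlap those of 2310011J03Rik on the opposite strand, so reads of the 2 genes there cannot be told apart.

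**Figure D3:**
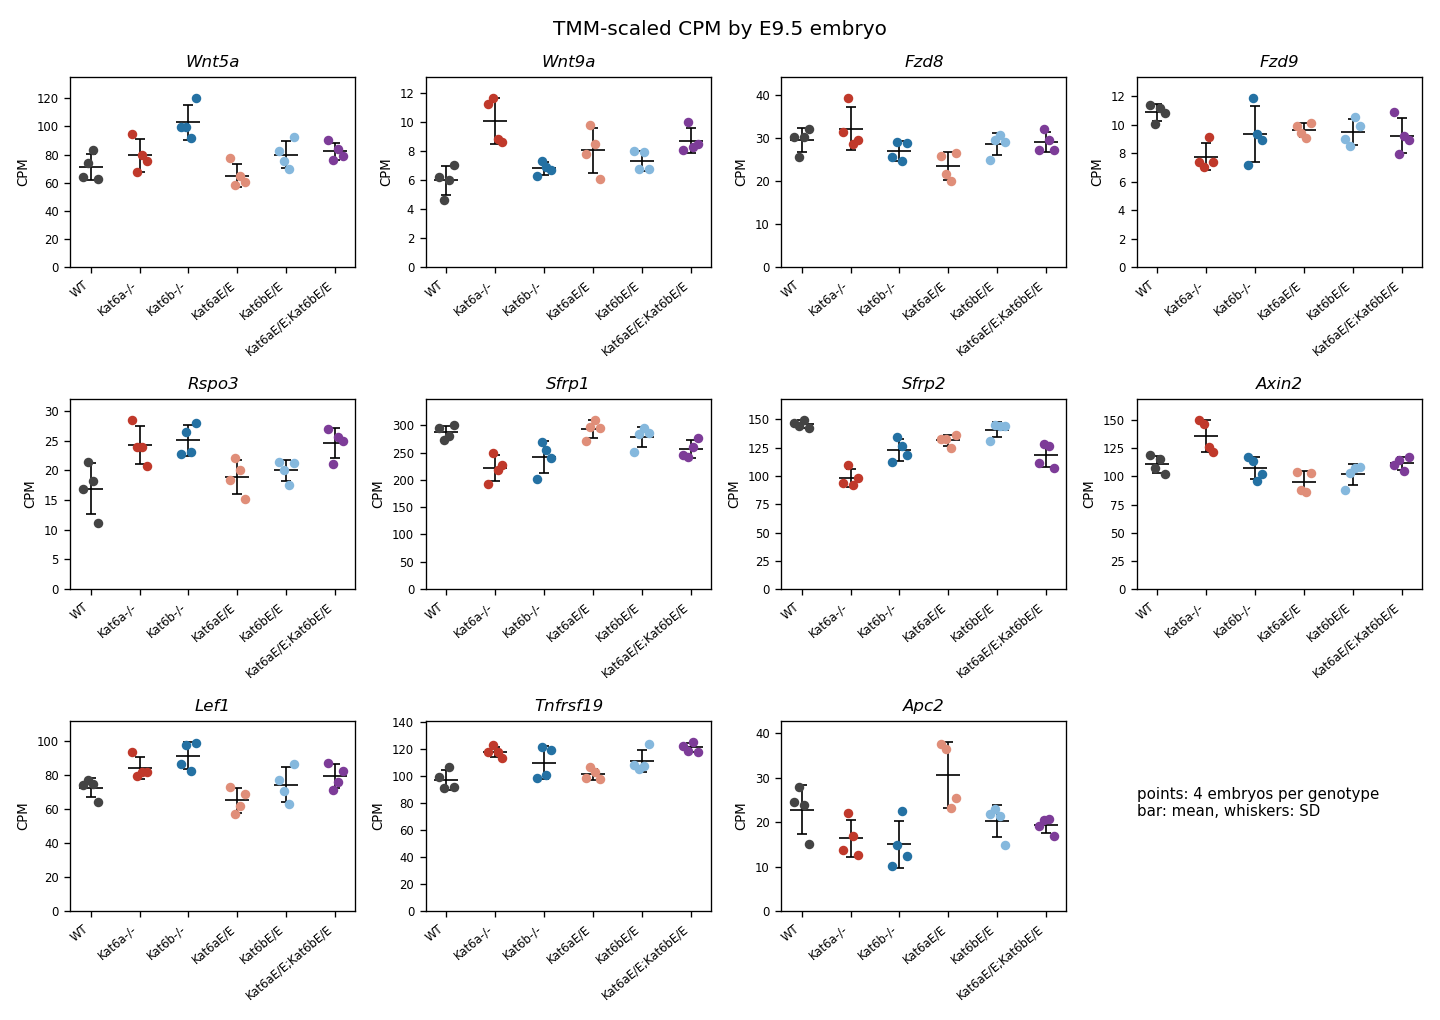
CPM of the 11 members called in at least 1 comparison, in each of the 4 embryos of 6 genotypes (points), with the mean (bar) and SD (whiskers). Sfrp2 and Sfrp1 are lowest in Kat6a-/-, Tnfrsf19 is above WT in all Kat6a-/- and double mutant embryos, and Wnt5a stands highest in Kat6b-/-.

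Direct comparison of point and null mutants asked how far removal of the protein differs from removal of its catalytic activity. In Kat6aE/E against Kat6a-/- embryos 6 of 47 members were called (12.8%, against 1.6% of all genes): Apc2, Sfrp2 and Sfrp1 were higher (0.973% of all genes were higher) and Fzd8, Axin2 and Lef1 lower (0.628% of all genes were lower). Sfrp2, Sfrp1 and Apc2 are also among the calls of Kat6a-/- against WT, and both comparisons use the same Kat6a-/- libraries. Here too, the members had been chosen with earlier results of these data known. Of the 19 ligand estimates 17 were below 0, with a median of -0.173, and none was called in limma, with 4 under 0.05 before adjustment (15.6% of all genes). In Kat6bE/E against Kat6b-/- embryos 0 of 47 members were called in limma (0.0353% of all genes), with 7 under 0.05 before adjustment (14.9%, beside 8.83% of all genes), and 0 in edgeR and DESeq2. Lef1 (-0.25) and Wnt5a (-0.29) came closest, both at FDR=0.149, and Wnt5a was called without the 3 libraries with Xist reads (-0.39, FDR=0.0217). In Kat6aE/E;Kat6bE/E against Kat6a-/- embryos 0 of 47 were called in limma (0.00705% of all genes), with 11 under 0.05 before adjustment (23.4%, beside 10.4% of all genes), 0 in edgeR and 1 in DESeq2. There Sfrp2 (0.23, 95% confidence interval 0.11 to 0.35, FDR=0.168), Apc2 (0.39, FDR=0.194) and Axin2 (-0.31, FDR=0.238) had the smallest p. In the design taken without voom weights or litter, replicate 2 of the double mutant had a leverage of 0.88. Its weight was -14.3% in its own group's estimate, -29.6% in that of WT and -19.3% in that of Kat6a-/-. A difference between 2 genotypes takes the difference of these weights. Its weight in the double mutant against WT or Kat6a-/- was therefore above 0, but below those of double mutant replicates 1, 3 and 4. These weighed 40.2%, 46.3% and 27.8% in their own group's estimate, and replicates 1 and 3 were of the same litter.

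**Figure D4:**
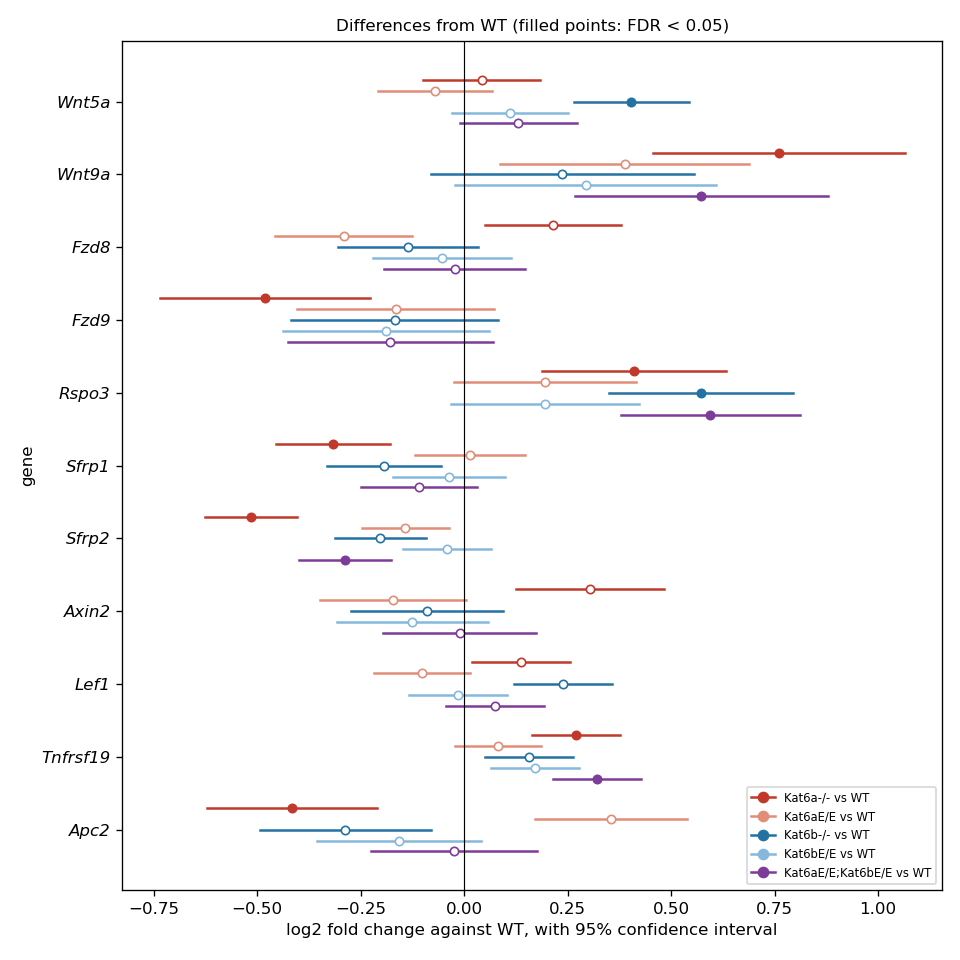
Log2 fold change against WT with its 95% confidence interval for the 11 called members in the 5 mutant genotypes, with filled points for FDR<0.05. The Kat6a-/- and Kat6aE/E intervals are on opposite sides of 0 for Apc2 and Fzd8, and the Rspo3 estimates of all 5 genotypes lie above 0.

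Other genes of the pathway came from lists drawn up with earlier results of these data known, so their shares are no independent check. Calls were chiefly among membrane and secreted regulators in Kat6a-/- embryos. Of 18 such regulators 6 rose and 0 fell in Kat6a-/- against WT, with a median log2 fold change of 0.217, beside 1.26% of all genes that rose and 1.38% that fell. They were Kremen2 (0.98, SE 0.20, FDR=0.0105), a receptor for DKK proteins, Rnf43 (0.83, SE 0.18, FDR=0.0153), a ligase that removes Frizzled receptors from the surface, Sostdc1 (0.86, SE 0.19, FDR=0.018) and Sost (0.52, SE 0.14, FDR=0.0462), secreted antagonists, Gpc4 (0.36, SE 0.092, FDR=0.0386), a glypican, and Ror1 (0.24, SE 0.064, FDR=0.0395), a receptor for WNT5A. In Kat6aE/E against Kat6a-/- embryos 3 of the 18 were lower, beside 0.628% of all genes, Notum (-0.43, FDR=0.0443), Ror1 (-0.25, FDR=0.0443) and Kremen1 (-0.24, FDR=0.0431). None was called in the other 6 comparisons, with 0 to 7 under 0.05 before adjustment in limma, beside 4.41% to 18.2% of all genes. Wls, the carrier of Wnt proteins to the cell surface, rose in Kat6a-/- (0.26, SE 0.069, FDR=0.0457) and Porcn, the enzyme that attaches their lipid, did not pass the test.

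Of 21 intracellular components, including the Dvl, Gsk3, Tcf7 and Tle genes, 1 rose in Kat6a-/- embryos (Bcl9l, a beta-catenin co-activator, 0.20, FDR=0.0376), beside 1.26% of all genes. Another 1 fell in Kat6b-/- embryos (Tle5, a short Groucho protein, -0.25, FDR=0.0181), beside 0.338% of all genes. Tle5 was higher in Kat6bE/E than in Kat6b-/- embryos (0.29, FDR=0.0241), where 0.0353% of all genes were called. Pygo1 was the only one of the 21 higher in Kat6aE/E than in Kat6a-/- embryos (0.27, FDR=0.0294), beside 0.973% of all genes. Among 11 tested target and feedback genes, none was called against WT in limma, with 2 under 0.05 before adjustment in Kat6a-/- (16.9% of all genes). Myc alone was lower in Kat6aE/E than in Kat6a-/- embryos (-0.37, FDR=0.0332), beside 0.628% of all genes.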

How the data were processed

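Read pairs had been counted per gene before deposit. The authors aligned paired-end, unstranded reads to mm39 with Rsubread and counted them over RefSeq exons with featureCounts, and the deposited values are raw counts per gene and library. Tool versions for these steps are not given in the sources used here.

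From these counts, protein-coding genes were kept, 93 Y-linked genes were left out, and genes too low for edgeR's filterByExpr were dropped, which left 14183 genes. Library sizes were scaled by TMM. limma (3.58.1) with voom weights, edgeR (4.0.16) and R (4.3.3) fitted all 24 embryo libraries with a term for each of 6 genotypes and for 4 surrogate variables. Litter entered as a random effect (correlation 0.107), and variances were moderated by robust empirical Bayes. FDR is Benjamini-Hochberg over all genes tested, and a member is called at FDR<0.05. Differences are log2 fold changes from this fit. CPM in the text are TMM-scaled counts without surrogate variables, and confidence intervals are 95%. Libraries came from separate embryos.

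Members were matched by symbol, and the members and the lists were chosen with earlier results of these data known. Named genes are the highest and lowest of each family in WT, those called in any comparison, the 3 smallest p in each comparison, and some with separate ranges, which were picked after their values were seen. Kat6aE/E and Kat6a-/- are compared directly, and comparisons that share a group are not independent. Alternatives were edgeR's quasi-likelihood test and DESeq2 (1.42.0), other numbers of surrogate variables, other gene filters and size factors, a replicate block, only the 8 libraries compared, and each library left out in turn. Leaving out the 3 libraries with Xist reads was chosen after seeing the data. Foetal liver libraries were used only for levels.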

Additional observations from a re-analysis of the deposited data

Results flagged for a closer look

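Among the 11 members called in any comparison, 66 groups of 4 embryos were examined for 1 embryo standing apart, by its gap to the nearest other embryo as a share of the group's range (beyond Dixon's 95% critical value). Kat6bE/E replicate 4 stood above the other 3 for Tnfrsf19 (123.2 CPM, gap 0.835 of the range). Kat6bE/E replicate 1 stood below the other 3 for Sfrp2 (130.8 CPM, gap 0.904). Chance flags about 1 in 20 groups, which is 3.3 of 66, so 2 is no more than chance gives.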

How the results depend on the processing

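All called members kept their direction in every alternative. Some differences that the main fit did not call were called in alternatives, and part of these are given above. Sfrp2 and Tnfrsf19 in Kat6a-/- against WT were called in all 37 alternatives. The number of members called in Kat6a-/- against WT went from 7 to 4 with 0 or 2 surrogate variables, with edgeR's quasi-likelihood test without surrogate variables and without the 3 libraries with Xist reads, and ranged from 3 to 10 with 1 library left out. For Kat6aE/E against Kat6a-/- it went from 6 to 3 with 0 surrogate variables and to 0 with only the 8 libraries compared, and ranged from 4 to 7 with 1 library left out. The share of all genes went from 1.6% to 0.43% and 0.0218% in these settings. For Kat6aE/E;Kat6bE/E against WT it went from 4 to 0 with 0 surrogate variables, with edgeR without them and with only the 8 libraries compared, and ranged from 3 to 5 with 1 library left out. No gene of any kind was called in those 3 settings, beside 2.91% of all genes in the main fit and 0.805% to 4.13% with 1 library left out. For Kat6b-/- against WT it went from 2 to 0 in the same 3 settings, to 1 with 2 surrogate variables and with DESeq2 without them and to 4 with all gene types kept, and ranged from 0 to 4 with 1 library left out. The share of all genes was 0%, 0% and 0.022% in those 3 settings, beside 0.508% in the main fit. It was 0.204% with 2 surrogate variables, 0.113% with DESeq2, 0.765% with all gene types and 0.0771% to 0.792% with 1 library left out. From 0, Kat6aE/E against WT went to 1 with 6 surrogate variables (0.86% of all genes) or no filter on low counts (0.216%; 0 to 1 with 1 library left out). From 0, Kat6aE/E;Kat6bE/E against Kat6a-/- went to 2 with 6 surrogate variables (0.303% of all genes) and 1 with DESeq2 (0.691% of all genes). From 0, Kat6bE/E against Kat6b-/- went to 2 with all gene types (0.198% of all genes) and to 1 without the libraries with Xist reads (0.0697% of all genes), and was 0 to 1 with 1 library left out. The causes were not tested.

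Replicate numbers are shared between genotypes but did not pair the embryos: correlations of deviations in 60 same-numbered pairs ran from -0.233 to 0.311 (median 0.0478). A replicate block gave 5 members in Kat6b-/- against WT (1.41% of all genes) and 1 in Kat6bE/E against Kat6b-/- (0.0917% of all genes), and the other counts stayed within 1.5 times.

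Intervals cover embryos of one series. Fzd9 and Wnt9a rested on fewer reads than the other called members. Reads were unstranded, and lncRNA genes on the opposite strand overlap Sfrp2, Tnfrsf19, Wnt5a, Rspo3, Axin2, Fzd9 and Lef1.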

Other observations

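Foetal liver LSK cells, which are Lin-, Sca-1+ and c-KIT+ and contain the blood stem and progenitor cells, expressed a smaller set of these genes than whole embryos. In the 4 WT LSK libraries (E14.5), 17 of 49 members had a mean of at least 1 CPM, against 45 in WT embryos, 8 had at least 5 CPM, and 4 had no read in any of the 16 LSK libraries. The co-receptor genes Lrp5 (124 ± 19.1 CPM, SD, n = 4) and Lrp6 (105 ± 6.81) were highest, followed by Fzd7 (26.3 ± 1.55), Fzd9 (9.59 ± 3.16), Fzd6 (8.77), Fzd5 (7.73) and Fzd8 (6.44 ± 1.29). The secreted inhibitors that were most abundant in embryos were low here, with Sfrp2 at 1.11 CPM and Sfrp1 at 0.404 CPM. Lef1 was at 3.50 ± 3.07 CPM. Stage, tissue and gate differ between the 2 sets of libraries, and no test was made between them.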
